A study of Mus musculus with 6 samples.

Results

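Transcripts of 9 genes known to be induced in sensory neurons by axon injury or by dissociation were followed across 3 sorted subsets of mouse dorsal root ganglion cells. The genes are Atf3, Sox11, Gadd45a, Gap43, Stmn2, Stmn4, Sprr1a, Ecel1 and Csf1. They were found by symbol among the 23029 genes of the deposited RPKM table (reads per kilobase of gene, scaled to the library's reads), and all 9 passed the filter on low values of at least 1 RPKM in at least 2 libraries. DP cells bound isolectin B4 (IB4+) and carried GINIP (GINIP+), and the labels describe them as Mrgprd+ neurons. C-LTMR cells were IB4-GINIP+, and DN cells were IB4-GINIP- and hold the remaining cells of the ganglia. Every animal had the genotype GINIP+/mcherry, so the reporter allele was shared by the 3 groups. The labels name no nerve injury, and cell sorting is the only treatment they give. Each group had 2 libraries, so every mean ± SD has n = 2. The labels do not tie the replicates to separate animals, and p-values therefore reflect the spread between libraries alone, which may be technical.

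When a peripheral axon is cut, the sensory neuron replaces part of its transcript profile with a growth programme. Damage signals reach the nucleus, transcription factors such as ATF3, JUN and SOX11 are induced, and genes of the growth cone, of secreted factors and of stress proteins follow. Enzymatic dissociation of a ganglion cuts every axon close to the cell body and is known to start the same programme, so freshly sorted neurons carry it to some degree. GAP43 and the stathmins act on membrane and microtubules in growing axons, and CSF1 released by injured neurons acts on microglia and macrophages.

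Estimated depth was 32.1 to 41.8 M reads per library. Markers of the labelled types followed the labels, with summed levels of 11 Mrgprd nociceptor markers of 1926 and 1931 RPKM in DP, 574 and 624 RPKM in C-LTMR, and 28.9 and 34.1 RPKM in DN. The sums of 8 C-LTMR markers were 85.9 and 99.8 RPKM in DP, 1447 and 1451 RPKM in C-LTMR, and 19.8 and 38.4 RPKM in DN. DN held markers of several other types. Its 7 peptidergic neuron markers summed to 8084 and 8942 RPKM, against 1334 to 1661 RPKM in the GINIP+ libraries, and its 14 satellite glia and Schwann cell markers to 9046 and 18804 RPKM, against 1328 to 3342 RPKM. Calcb, on the peptidergic list, went the other way (548 ± 39.3 RPKM in DP and 257 ± 34.5 RPKM in DN). The 8 myelinated neuron markers had their lowest sums in DN, at 642 and 943 RPKM, against 1008 to 1517 RPKM in the GINIP+ libraries. The 14 endothelial, pericyte and fibroblast markers summed to 521 and 806 RPKM in DN, against 7.68 to 25.4 RPKM in the GINIP+ libraries. In such bulk samples, fewer cells of a type and less RNA per cell cannot be told apart.

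**Figure D1:**
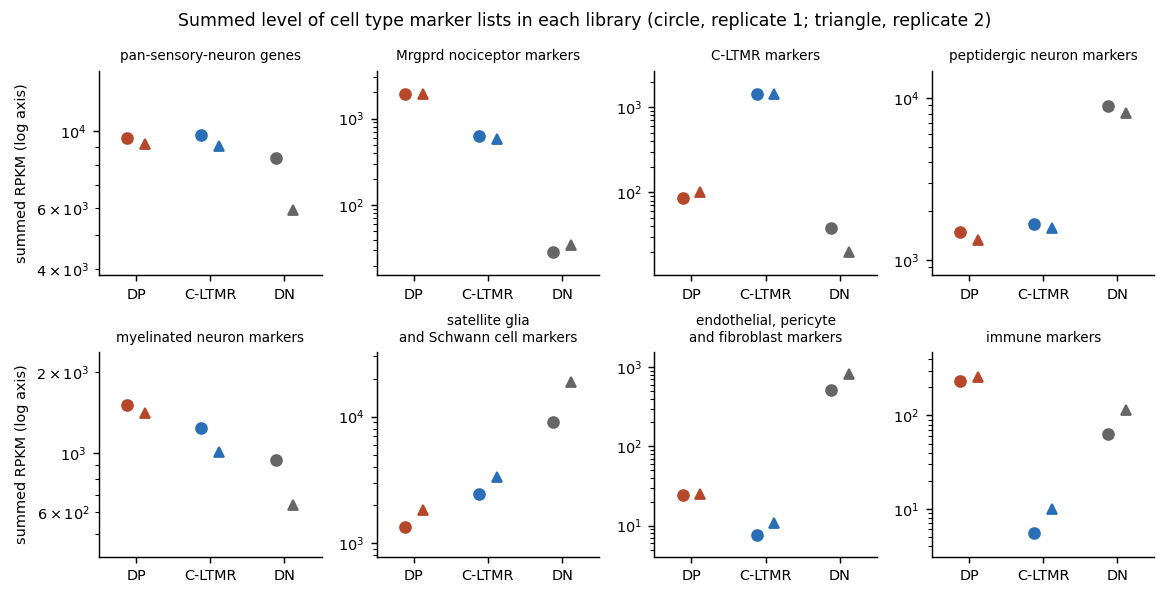
Summed RPKM (log axes) of the marker lists of 8 cell classes in each library, with circles for replicate 1 and triangles for replicate 2. The DN libraries have the highest sums of glial (9046 and 18804 RPKM) and vessel markers, and their pan-sensory-neuron sums are the lowest.

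The sequences upstream of 4 members are shown because Atf3, Sox11 and Gadd45a were called higher together in DP than in C-LTMR, while Sprr1a and Atf3 hold the motifs found. RefSeq promoter windows (build GRCm38.p6) matched 6 of the 9 members, all on the minus strand. Each window was searched on both strands for the AP-1 site TGACTCA, the cAMP response element TGACGTCA and the C/EBP-ATF response element TGATGCAA, and no matches overlapped. The 250 bases before the annotated start follow, 5′ to 3′, with matches in capitals, for Atf3 (chr1:191183334-191183583), Sox11 (chr12:27342719-27342968), Gadd45a (chr6:67037408-67037657) and Sprr1a (chr3:92485882-92486131).
Atf3: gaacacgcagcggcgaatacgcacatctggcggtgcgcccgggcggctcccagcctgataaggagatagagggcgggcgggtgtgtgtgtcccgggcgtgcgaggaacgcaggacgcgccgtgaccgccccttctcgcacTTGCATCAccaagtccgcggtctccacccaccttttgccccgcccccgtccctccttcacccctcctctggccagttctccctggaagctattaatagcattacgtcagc
Sox11: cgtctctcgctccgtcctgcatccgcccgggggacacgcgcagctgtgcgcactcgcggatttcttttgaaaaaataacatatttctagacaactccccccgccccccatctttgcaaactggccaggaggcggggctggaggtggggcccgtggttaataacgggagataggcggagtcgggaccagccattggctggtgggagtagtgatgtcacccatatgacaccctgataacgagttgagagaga
Gadd45a: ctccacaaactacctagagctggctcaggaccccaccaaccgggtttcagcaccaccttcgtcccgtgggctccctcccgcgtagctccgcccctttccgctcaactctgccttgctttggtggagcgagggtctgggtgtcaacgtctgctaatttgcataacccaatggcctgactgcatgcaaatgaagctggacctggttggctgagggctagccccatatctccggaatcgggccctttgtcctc
Sprr1a: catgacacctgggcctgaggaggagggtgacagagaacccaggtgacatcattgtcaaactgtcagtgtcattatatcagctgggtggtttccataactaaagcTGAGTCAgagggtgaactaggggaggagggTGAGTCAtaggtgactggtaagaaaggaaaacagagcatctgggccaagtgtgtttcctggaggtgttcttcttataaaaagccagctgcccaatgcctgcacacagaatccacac
The Sprr1a window has 2 AP-1 sites, at positions -146 and -116 from the start, and 5.20% of the 32851 promoter windows have at least 1. The Atf3 window has a C/EBP-ATF response element at position -110, a motif present in 0.89% of windows. The cAMP response element (1.79% of windows) was in none of the 6 members' windows as spelled here. A match describes letters and does not show that a factor binds there.

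Atf3 (Entrez 11910, chromosome 1, 191170297 to 191183333, GRCm38 as for all members) encodes the transcription factor whose appearance is the usual mark of an injured sensory neuron. It was abundant in every library and highest in DN. Its level was 192 and 199 RPKM in DP, 80.3 and 109.7 RPKM in C-LTMR, and 611 and 843 RPKM in DN. The 3 groups did not overlap, and the DN libraries placed Atf3 above 99.3% and 99.6% of the genes tested. Its mean in DP (196 ± 5.13 RPKM) was lower than in DN (727 ± 165 RPKM), with a log2 fold change of -1.87 (SE 0.194, limma adjusted p = 0.000255). The C-LTMR mean (95.0 ± 20.8 RPKM) was lower still against DN (-2.92 on the log2 scale, SE 0.194, limma adjusted p = 3.99e-05). DP was higher than C-LTMR by 1.05 on the log2 scale (SE 0.194, limma adjusted p = 0.00776). Calling a gene required limma's p, adjusted by Benjamini and Hochberg (BH) over the 12386 genes tested, to lie under 0.05 and the log2 fold change to reach 1 in either direction. Fold changes are on the log2(RPKM + 1) scale, where genes of low level show less than their true change. All 3 differences of Atf3 were called, but the one between DP and C-LTMR was not called without DP replicate 2 (limma adjusted p = 0.0517), without C-LTMR replicate 1 (log2 fold change 0.83) or with no filter on low values (adjusted p = 0.0784).

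Sox11 (Entrez 20666, chromosome 12, 27334268 to 27342718) encodes a transcription factor of developing neurons that is induced again by axotomy and is needed for axon regrowth in mice. It was lowest in C-LTMR. Its level was 9.14 and 9.36 RPKM in DP, 4.08 and 3.88 RPKM in C-LTMR, and 8.32 and 8.15 RPKM in DN. DP and DN lay close together, and replicates differed little. DP was called higher than C-LTMR (log2 fold change 1.04, SE 0.089, limma adjusted p = 0.000276). C-LTMR differed from DN by a log2 fold change of -0.89 (limma adjusted p = 0.000213), short of the fold required, and was called at -1.11 in the table of TMM-normalized counts, at -1.03 with a pseudocount of 0.1 and at -1.33 after rescaling to pan-sensory-neuron genes. Between DP and DN the log2 fold change was 0.15 and did not pass (limma adjusted p = 0.183), and this difference changed sign to -0.19 when libraries were rescaled to pan-sensory-neuron genes.

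Gadd45a (Entrez 13197, chromosome 6, 67035096 to 67037407) encodes a stress protein of the DNA damage and p38/JNK pathways that rises in neurons after nerve injury. Its order was that of Sox11, with C-LTMR lowest. It stood at 85.3 and 90.7 RPKM in DP, 39.6 and 41.5 RPKM in C-LTMR, and 57.0 and 77.0 RPKM in DN. The 3 groups did not overlap. DP (88.0 ± 3.83 RPKM) was called higher than C-LTMR (40.6 ± 1.40 RPKM; log2 fold change 1.10, SE 0.143, limma adjusted p = 0.0017). Against DN (67.0 ± 14.2 RPKM), the log2 fold changes were 0.40 for DP (limma adjusted p = 0.0454) and -0.69 for C-LTMR (0.00569), both under the fold required. Rescaling to pan-sensory-neuron genes put the second at -1.20, and it was then called. Both other Gadd45 genes had another order. Gadd45b was at 33.7 ± 0.950 RPKM in DP, 28.8 ± 7.04 RPKM in C-LTMR and 189.7 ± 58.9 RPKM in DN, and Gadd45g at 134 ± 1.52, 107 ± 0.559 and 654 ± 57.5 RPKM in the same order, and both were called lower in DP and in C-LTMR than in DN.

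**Figure D2:**
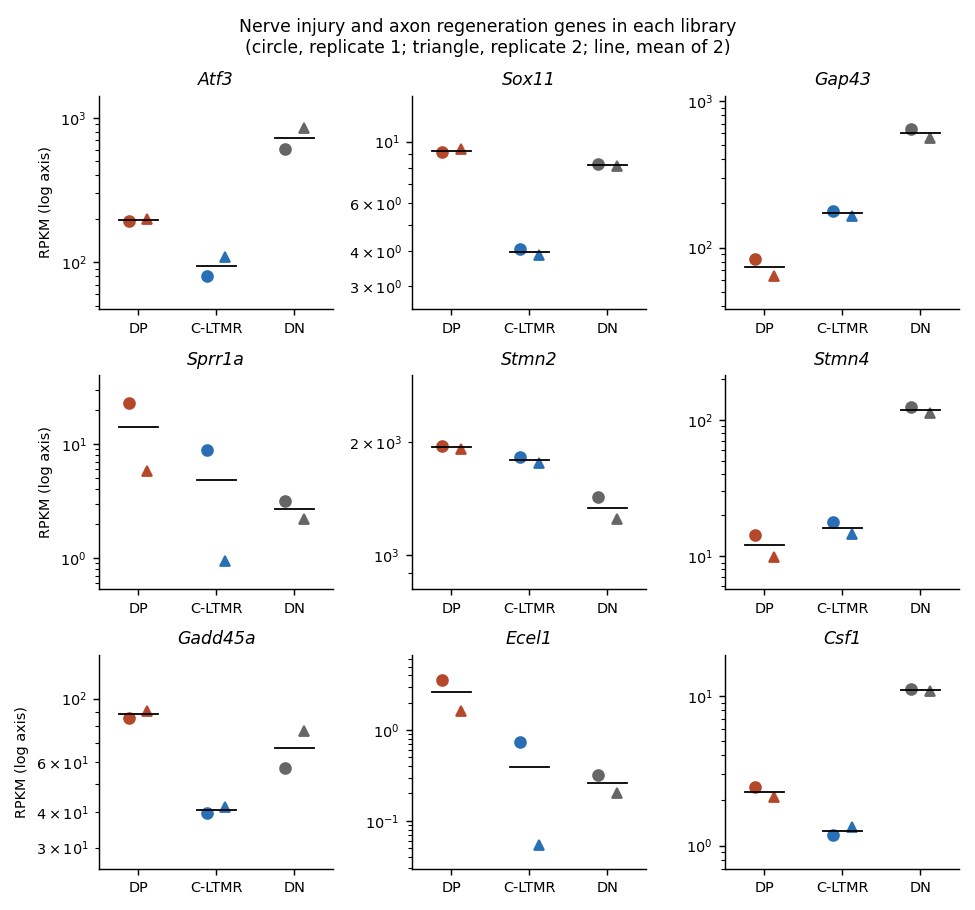
RPKM of the 9 genes in each library on log axes, with circles for replicate 1, triangles for replicate 2 and a line at the mean of the 2. Atf3, Gap43, Stmn4 and Csf1 are highest in DN, Sox11 and Gadd45a are lowest in C-LTMR, and Sprr1a and Ecel1 are highest in DP with wide gaps between replicates.

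Gap43 (Entrez 14432, chromosome 16, 42248561 to 42340651), the growth-associated protein of the axon membrane, was lowest in DP and differed between all 3 subsets. It was at 83.7 and 64.0 RPKM in DP, 178 and 165 RPKM in C-LTMR, and 646 and 560.1 RPKM in DN. No groups overlapped. The DP mean (73.9 ± 13.9 RPKM) was 8.16-fold lower than the DN mean (603 ± 60.9 RPKM), a log2 fold change of -3.02 (SE 0.145, limma adjusted p = 1.14e-05). C-LTMR (172 ± 9.43 RPKM) against DN gave -1.80 (SE 0.145, limma adjusted p = 8.91e-05), and DP against C-LTMR -1.22 (SE 0.145, limma adjusted p = 0.00116). Gap43 is also made by some Schwann cells. The myelin gene Mbp was at 22.4 and 28.5 RPKM in DP, 141 and 125 RPKM in C-LTMR, and 392 and 340 RPKM in DN, and the part of such cells in the Gap43 result was not tested.

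Stmn2 and Stmn4 encode neuronal stathmins, which bind tubulin and keep growth cone microtubules dynamic. Against DN, Stmn2 was slightly above and Stmn4 far below in both GINIP+ subsets. Stmn2 (Entrez 20257, chromosome 3, 8509527 to 8561604) was among the most abundant transcripts of every library, at 1954 and 1909.7 RPKM in DP, 1818 and 1753 RPKM in C-LTMR, and 1428 and 1251 RPKM in DN. It was modestly above DN in DP (log2 fold change 0.53, SE 0.106, limma adjusted p = 0.00469) and in C-LTMR (0.42, SE 0.106, limma adjusted p = 0.0135), under the fold required. Rescaling to pan-sensory-neuron genes left 0.15 in DP (limma adjusted p = 0.275) and -0.09 in C-LTMR. Between DP and C-LTMR it did not pass (0.11, limma adjusted p = 0.476; -0.07 under quantile normalization).

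Stmn4 (Entrez 56471, chromosome 14, 66344375 to 66361680) was at 14.3 and 9.81 RPKM in DP, 17.8 and 14.7 RPKM in C-LTMR, and 125 and 113 RPKM in DN. Both GINIP+ subsets lay far below DN and close to each other. The log2 fold change against DN was -3.22 in DP (SE 0.180, limma adjusted p = 1.91e-05) and -2.80 in C-LTMR (SE 0.180, limma adjusted p = 3.37e-05), both called. DP and C-LTMR did not pass against each other (-0.41, SE 0.180, limma adjusted p = 0.136). Within a library, the ratio of Gap43 to Stmn2 was 0.0429 and 0.0335 in DP, 0.0981 and 0.0941 in C-LTMR, and 0.453 and 0.448 in DN. The ratio of Stmn4 to Stmn2 was 0.00734 and 0.00514 in DP, 0.00979 and 0.00836 in C-LTMR, and 0.0876 and 0.0900 in DN. These ratios compare levels per length and do not depend on the scaling of a library.

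Sprr1a (Entrez 20753, chromosome 3, 92483954 to 92485881) encodes a small proline-rich protein of epidermis that injured sensory neurons also make. It was called in none of the 3 comparisons, and its replicates lay far apart. It stood at 22.7 and 5.74 RPKM in DP, 8.80 and 0.941 RPKM in C-LTMR, and 3.18 and 2.20 RPKM in DN. The DP libraries were above the DN libraries, while C-LTMR overlapped both groups. The log2 fold change of DP was 1.79 against DN (SE 0.830, limma adjusted p = 0.103) and 1.53 against C-LTMR (SE 0.830, limma adjusted p = 0.22), and C-LTMR against DN gave 0.25 (limma adjusted p = 0.808). In every group replicate 1 was above replicate 2, and with the replicate number as a block both differences of DP were called (limma adjusted p = 0.011 and 0.0363). DP against DN was also called without DP replicate 2 (log2 fold change 2.70, limma adjusted p = 0.0482), without C-LTMR replicate 1 (0.0412) or 2 (0.0409), and when the DP and DN libraries were fitted alone (0.0411).

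Ecel1 (Entrez 13599, chromosome 1, 87147655 to 87155027) encodes DINE, a membrane peptidase of the endothelin-converting enzyme family that is induced in damaged neurons. It was scarce and highest in DP. It was at 3.61 and 1.64 RPKM in DP, 0.738 and 0.0547 RPKM in C-LTMR, and 0.316 and 0.200 RPKM in DN. It passed the low-value filter through its DP libraries alone, so it had to differ to be tested. With the estimated depths and an exon length of 3179 bases, the value in C-LTMR replicate 2 stands for about 5.6 reads, and those in DP for about 480 and 199 reads. The log2 fold change of DP was 1.47 against DN (SE 0.313, limma adjusted p = 0.00622) and 1.37 against C-LTMR (SE 0.313, limma adjusted p = 0.0184), both called. With no filter on low values, neither was called (adjusted p = 0.0618 and 0.132). The difference from C-LTMR was also lost without DP replicate 1 (0.97, limma adjusted p = 0.0895) and without C-LTMR replicate 2 (1.01, adjusted p = 0.1). With a pseudocount of 0.1 the log2 fold changes of DP were 2.85 against DN and 2.82 against C-LTMR. C-LTMR against DN gave 0.11 (limma adjusted p = 0.787) and overlapped.

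**Figure D3:**
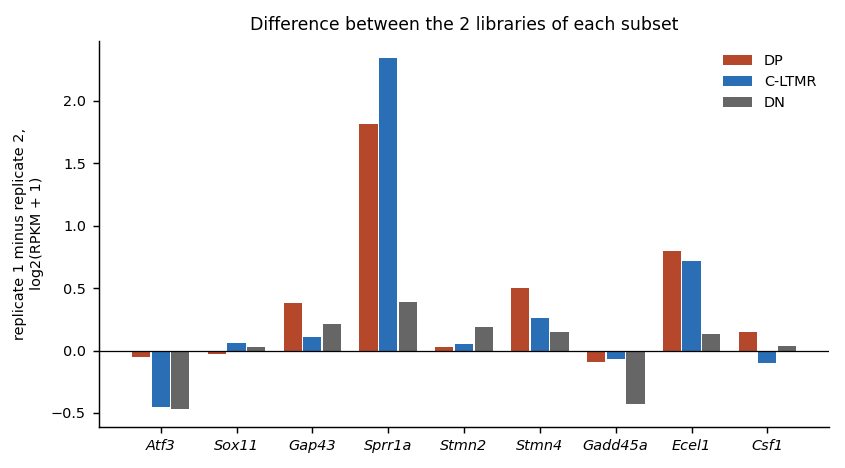
Replicate 1 minus replicate 2 on the log2(RPKM + 1) scale for each gene, with a bar per subset. Sprr1a (1.81 in DP, 2.34 in C-LTMR, 0.39 in DN) and Ecel1 (0.80, 0.72 and 0.13) were higher in replicate 1 in every subset, while Atf3 and Gadd45a were lower in replicate 1 in every subset.

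Csf1 (Entrez 12977, chromosome 3, 107741048 to 107760469) encodes the secreted ligand of the CSF1 receptor, through which injured sensory neurons act on microglia. It was lower in both GINIP+ subsets than in DN. Its level was 2.46 and 2.11 RPKM in DP, 1.17 and 1.32 RPKM in C-LTMR, and 11.1 and 10.8 RPKM in DN, with no overlap between groups. Against DN the log2 fold change was -1.86 in DP (SE 0.104, limma adjusted p = 1.9e-05) and -2.41 in C-LTMR (SE 0.104, limma adjusted p = 7.73e-06). DP against C-LTMR gave 0.55 (SE 0.104, limma adjusted p = 0.00869), under the fold required. Il34, the other ligand of the same receptor, had another order. It was at 2.87 and 2.32 RPKM in DP, 6.51 and 6.66 RPKM in C-LTMR, and 6.48 and 7.53 RPKM in DN, and was called lower in DP than in DN (log2 fold change -1.16, limma adjusted p = 0.000255) and than in C-LTMR (-1.08, limma adjusted p = 0.000856). The receptor gene Csf1r was at 0.264 and 0.114 RPKM in DP, 0.106 and 0.0719 RPKM in C-LTMR, and 0.159 and 0.0960 RPKM in DN, under the low-value filter, and was not tested.

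**Figure D4:**
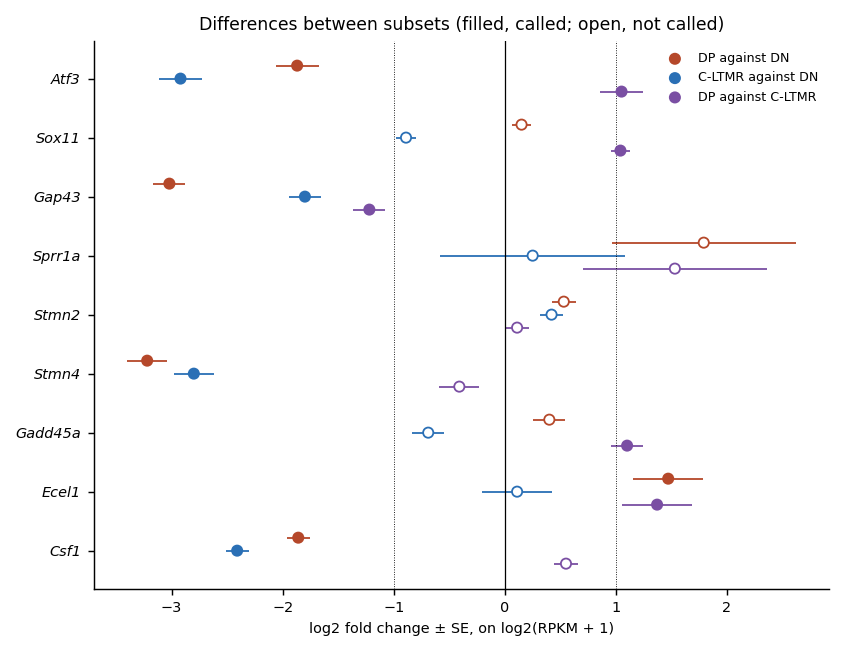
Log2 fold change (on log2(RPKM + 1), ± SE) of each gene in the 3 comparisons, filled where called and open where not, with dotted lines at the fold required. Gap43, Stmn4, Atf3 and Csf1 lie left of -1 in both comparisons with DN, and Sprr1a has the widest errors (SE 0.830).

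Ecel1 is left out of the counts over the members, since it was tested only because of its DP libraries. Of the other 8, 4 were called lower in DP than in DN (Atf3, Gap43, Stmn4 and Csf1) and 0 higher, where 19.0% of the genes tested were called lower and 6.11% higher. In C-LTMR against DN the same 4 genes were called lower and 0 higher, where 17.4% of genes were called lower and 6.66% higher. These comparisons share the DN libraries. In DP against C-LTMR, 3 of the 8 were called higher (Atf3, Sox11 and Gadd45a) and 1 lower (Gap43), where 3.73% of genes were called higher and 5.90% lower. The median log2 fold change of these 8 was -0.86, -1.35 and 0.79 in the 3 comparisons as ordered here (0.15, -0.89 and 1.04 with Ecel1), beside -0.13, -0.04 and -0.04 for all genes tested. Higher calls made up 24.3% of all calls in DP against DN and 27.7% in C-LTMR against DN. Quantile normalization put these shares at 41.6% and 42.7%, the table of TMM-normalized counts at 37.4% and 38.0%, and rescaling to pan-sensory-neuron genes at 14.1% and 13.6%, with the median of all genes at -0.45 and -0.48. The 4 genes lower in both GINIP+ subsets than in DN were called under each of these scalings.

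The levels also ranked the members differently in each subset. After Stmn2, which was first in all 3, the order in DP was Atf3, Gadd45a and Gap43, in C-LTMR Gap43, Atf3 and Gadd45a, and in DN Atf3, Gap43 and Stmn4. Csf1 and Ecel1 had the 2 lowest means in DP and in C-LTMR, with Ecel1 (2.63 ± 1.39 RPKM) and Csf1 (2.29 ± 0.249 RPKM) within their spread in DP. In C-LTMR replicate 2, however, Sprr1a (0.941 RPKM) lay below Csf1 (1.32 RPKM). In DP, Gadd45a and Gap43 (88.0 ± 3.83 and 73.9 ± 13.9 RPKM) lay about 1 SD apart, and in DN the libraries of Atf3 and Gap43 overlapped. In DN the lowest were Ecel1 (0.258 ± 0.0820 RPKM) and Sprr1a (2.69 ± 0.697 RPKM).

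The wider injury programme was followed with lists of related genes, whose counts are to be read beside the shares of all genes called, 6.11% higher and 19.0% lower in DP against DN, 6.66% and 17.4% in C-LTMR against DN, and 3.73% and 5.90% in DP against C-LTMR. Of 9 tested injury transcription factors, 4 (Jun, Klf6, Myc and Cebpd) were called lower both in DP and in C-LTMR than in DN, 0 were called higher, and 0 were called between DP and C-LTMR. Jun, the partner of ATF3, was at 97.9 ± 6.03 RPKM in DP, 50.0 ± 12.6 RPKM in C-LTMR and 449 ± 87.4 RPKM in DN. Klf6, a zinc finger factor that promotes axon growth, was at 40.0 ± 1.03, 35.2 ± 6.77 and 236 ± 64.3 RPKM in the same order. All 13 immediate early and dissociation genes were called lower in DP and in C-LTMR than in DN, and 2 of them, the heat shock genes Hspa1a and Hspa1b, were called higher in DP than in C-LTMR.

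Of 7 tested injury-induced secreted factors, 5 (Gal, Il6, Ccl2, Bdnf and Timp1) were called lower both in DP and in C-LTMR than in DN. The 1 called higher was Nts in DP (log2 fold change 2.04, against -0.31 in C-LTMR) and Fst in C-LTMR (2.15, against -0.14 in DP). Gal, the precursor of the peptide galanin, which rises strongly in axotomised neurons, was at 40.4 ± 9.46 RPKM in DP, 10.0 ± 0.0636 RPKM in C-LTMR and 631 ± 84.0 RPKM in DN. Il6, a cytokine of the regenerative response, was at 3.96 ± 0.871, 2.58 ± 0.933 and 78.3 ± 30.4 RPKM in that order. Between DP and C-LTMR, 5 were called higher and 1 lower, with Nts, the neurotensin precursor, at 12.3 ± 7.48 against 1.63 ± 1.52 RPKM and the activin-binding protein gene Fst at 1.04 ± 0.180 against 8.96 ± 0.214 RPKM.

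Surface, enzyme and stress genes of the response were divided. Of 17 tested, 4 were higher and 6 lower in DP than in DN, 1 higher and 8 lower in C-LTMR than in DN, and 7 higher and 1 lower in DP than in C-LTMR. Sdc1, which encodes the proteoglycan syndecan-1, was at 34.6 ± 0.628 RPKM in DP, 1.76 ± 0.508 RPKM in C-LTMR and 4.61 ± 0.426 RPKM in DN. Anxa1, the annexin A1 gene, was at 8.33 ± 0.933 RPKM in DP, 0.307 ± 0.352 RPKM in C-LTMR and 29.5 ± 11.3 RPKM in DN.

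Growth cone genes were called in both directions. Of 17 tested, 2 were higher and 5 lower in DP than in DN, 0 higher and 3 lower in C-LTMR than in DN, and 1 higher and 2 lower in DP than in C-LTMR. The 2 higher in DP than in DN were Tubb2b and Dcx. Dcx was at 1.95 ± 0.111 RPKM in DP, 0.527 ± 0.0759 RPKM in C-LTMR and 0.126 ± 0.000594 RPKM in DN. It passed the low-value filter through its DP libraries alone, so it had to differ to be tested. The 3 lower in C-LTMR than in DN were a share close to the 17.4% of all genes, and the list's median log2 fold changes were 0.17, 0.22 and 0.02 in the 3 comparisons. Basp1, a membrane protein gene related in function to Gap43, was at 465 ± 7.96 RPKM in DP, 120 ± 8.98 RPKM in C-LTMR and 275 ± 22.5 RPKM in DN, and was called higher in DP than in C-LTMR (log2 fold change 1.95, SE 0.099, limma adjusted p = 4.68e-05). Marcksl1, which encodes an actin-binding membrane protein, was at 9.68 ± 1.20, 6.49 ± 3.57 and 103 ± 18.4 RPKM in the same order and was called lower in both GINIP+ subsets than in DN.

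Of 14 tested genes of axon damage signalling and growth inhibition, 1 was higher and 4 lower in DP than in DN, 0 higher and 2 lower in C-LTMR than in DN, and 0 higher and 1 lower in DP than in C-LTMR. With 17.4% and 5.90% of all genes called lower in the last 2 comparisons, these shares were close to those of all genes, and the list's medians were 0.18, 0.21 and -0.02. Klf4, a zinc finger factor that restrains axon growth, was at 39.9 ± 6.35 RPKM in DP, 26.2 ± 8.85 RPKM in C-LTMR and 252 ± 106 RPKM in DN. Ptprs, a receptor phosphatase for inhibitory proteoglycans, was the gene called lower in DP (3.92 ± 0.159 RPKM) than in C-LTMR (13.4 ± 1.26 RPKM). Of 9 tested family and ligand-receptor partners, 0 were higher and 3 lower in DP than in DN, 0 higher and 5 lower in C-LTMR than in DN, and 1 higher and 1 lower in DP than in C-LTMR.

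**Figure D5:**
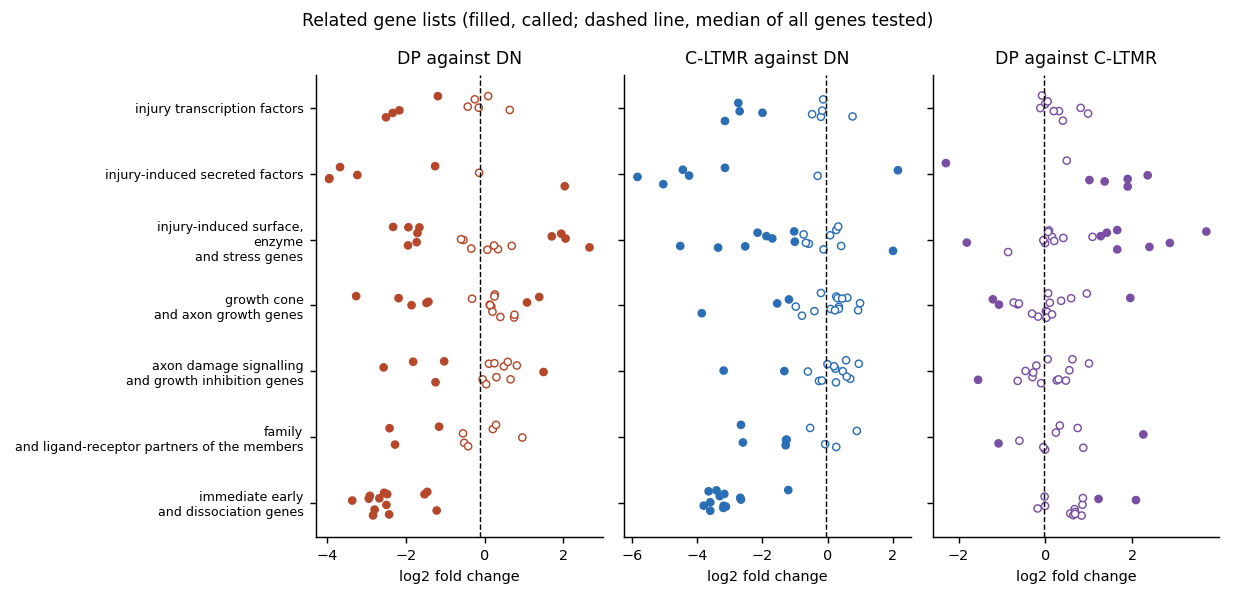
Log2 fold changes of the tested genes of 7 related lists in the 3 comparisons, 1 point per gene, filled where called, with a dashed line at the median of all genes tested. The 13 immediate early and dissociation genes lie left of the line in both comparisons with DN.

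Most markers of glial and vessel cells were also lower in both GINIP+ subsets than in DN. All 14 satellite glia and Schwann cell markers were tested, 13 were called lower in DP and 13 lower in C-LTMR than in DN, and none was listed at 0 in both libraries of any group. Endothelial, pericyte and fibroblast markers were called lower in 12 and 13 of 14, with none listed at 0 in both libraries of a group. Of these, Pecam1, Emcn, Kdr, Vwf, Cdh5, Lum and Col1a1 passed the low-value filter through their DN libraries alone. Prx and Cldn19 of the glial list did so too. Such genes had to differ from DN to be tested, so their calls add little to these counts. Higher means than in DN were seen for Pmp22 in C-LTMR (1185 ± 26.1 against 724 ± 61.9 RPKM) and Pdgfrb in DP (4.05 ± 0.168 against 2.73 ± 0.677 RPKM). The same held for Pdgfra in C-LTMR (1.24 ± 0.187 against 0.479 ± 0.0203 RPKM), which passed the filter through its C-LTMR libraries alone. These higher means were not called. The part of glial and vessel cells in the results for Atf3, Gap43, Stmn4 and Csf1 was not tested. Nor was their part tested in the related lists, such as the injury transcription factors, secreted factors and immediate early genes lower in both GINIP+ subsets. Which cells of DN made these transcripts is not known from such bulk samples. The 14 immune markers summed to 232 and 261 RPKM in DP, 5.56 and 10.0 RPKM in C-LTMR, and 63.5 and 115 RPKM in DN. Of 8 tested, 4 were called higher and 0 lower in DP than in C-LTMR, and Cx3cr1 was listed at 0 in both C-LTMR libraries. Against DN, 3 were called higher in DP (S100a8, S100a9 and Ngp) and 1 lower (Cd14). S100a8 (67.5 ± 11.4 RPKM) and S100a9 (108 ± 9.36 RPKM) held most of the DP sum. Cd68, Aif1 and C1qb had lower means in DP than in DN and were not called. They passed the low-value filter through their DN libraries alone, so a higher level in DN was needed for them to be tested. The immune markers under the filter had higher means in DP than in DN, such as C1qa (0.561 ± 0.296 against 0.0879 ± 0.0433 RPKM) and Ptprc (0.223 ± 0.0698 against 0.0639 ± 0.0257 RPKM). The part of immune cells in the higher Atf3, Sox11, Gadd45a and Ecel1 of DP was not tested. The higher glial sum of DN replicate 2 lay mostly in Apoe (5710 RPKM in replicate 1 and 12918 RPKM in replicate 2) and Fabp7 (1282 and 3542 RPKM), while Mbp, Prx and Cldn19, of myelinating Schwann cells, were lower there. The sum of 17 pan-sensory-neuron genes was 9191 and 9559 RPKM in DP, 9084 and 9748 RPKM in C-LTMR, and 5904 and 8372 RPKM in DN.

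Genes with the most similar profiles over the 6 libraries were sought among 7750 genes with a mean of at least 5 RPKM, by Pearson correlation of log2(RPKM + 1). With 3 subsets of 2 libraries, such values reflect mainly the subset means and share the libraries. For Atf3 they were Vkorc1, the vitamin K epoxide reductase gene (r = 0.9987, n = 6 libraries), and Pigx, of glycosylphosphatidylinositol anchor synthesis (0.9985). For Sox11 they were Atp8a1, a phospholipid flippase gene (0.9979), and Flrt3 (0.9975), an adhesion protein gene that was itself on the list of injury-induced surface genes. Flrt3 was at 12.8 and 13.1 RPKM in DP, 1.75 and 1.56 RPKM in C-LTMR, and 10.2 and 11.4 RPKM in DN. For Gap43 they were Hoxd8, a homeobox gene (0.9986), and Nxn, the nucleoredoxin gene (0.9975), which was at 4.23 and 3.72 RPKM in DP, 15.9 and 13.7 RPKM in C-LTMR, and 80.8 and 74.4 RPKM in DN.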

How the data were processed

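Libraries were made from amplified total RNA of sorted cells, per the labels' protocols. Per the submitters' processing notes, CASAVA 1.8.2, edgeR 2.6.2 and GRCm38 (mm10) were used; which step each served is not given in the sources used here, nor are annotation and strand. The deposited RPKM values of 23029 genes are the authors' reads per kilobase, scaled to the library's reads. A second deposited table holds 6620 genes as a TMM-normalized signal, not whole counts, with 7 of the 9 members (not Sprr1a and Ecel1). The members and gene lists were chosen with earlier results of these data known.

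The 12386 genes with at least 1 RPKM in at least 2 libraries were taken as log2(RPKM + 1) and fitted together over all 6 libraries with limma 3.58.1 (lmFit, contrasts.fit, eBayes with a trend; 3 residual and 3.54 prior degrees of freedom) in R 4.3.3. P-values were BH-adjusted over all genes tested. The procedure was tested on simulated data. Alternatives were another pseudocount, no filter, the TMM table, 3 other scalings, the 4 libraries compared, a replicate block and each library left out. Same-numbered libraries deviated together from their group means in DP and C-LTMR (r = 0.535), less so in C-LTMR and DN (0.345), and only weakly in DP and DN (0.134). This partial pairing was read from the data and not from the labels, so the block is given where it changed a call. Depth was not stated; it was estimated from the steps of low RPKM values in genes with a single transcript in GENCODE M21, where 50.1% to 53.9% of values lay within 0.05 of a whole read. Whole reads could not be recovered for all genes, so no count model was fitted. Estimated reads cover counting error only. Named genes were all members, up to 4 called genes per list and comparison with the largest fold change, and the 2 nearest profiles to Atf3, Sox11 and Gap43. Csf1r, Gadd45b, Gadd45g and the markers in sums were taken from the lists. Figures used Python 3.11.15 and matplotlib 3.10.9.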

Additional observations from a re-analysis of the deposited data

How the results depend on the processing

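Of 372 fold changes of members recomputed under the alternatives, 349 kept direction and side of the threshold, 10 gained a call, 7 lost it and 6 changed sign. None of the 6 had been called: Sox11 in DP against DN (-0.19), Sprr1a (-0.10) and Stmn2 (-0.094) in C-LTMR against DN after rescaling to pan-sensory-neuron genes, Stmn2 in DP against C-LTMR (-0.071) under quantile normalization, and Sprr1a and Ecel1 in C-LTMR against DN without C-LTMR replicate 1. Over the libraries left out in turn, these last values ran from -0.91 to 1.42 for Sprr1a and from -0.25 to 0.47 for Ecel1. The number of members called, Ecel1 included, stayed at 4 to 6 against DN and at 3 to 6 between DP and C-LTMR, with the low of 3 without a filter on low values. Counts of all genes called moved with the table of TMM-normalized counts, which tests fewer genes (1645 for DP against DN and 1562 for C-LTMR against DN, beside 3110 and 2974), and with a pseudocount of 0.1 (1828 for DP against C-LTMR, beside 1193; the cause was not tested). With a replicate block, 3114, 2975 and 1203 genes were called in the 3 comparisons, and the block changed no call of a member other than the 2 of Sprr1a. The table of TMM-normalized counts gave no value for Sprr1a and Ecel1. Values of Ecel1 and Sprr1a in C-LTMR replicate 2 are the least precise, near 5.6 and 24.3 estimated reads.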

Other observations

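Ratios between members within a library, chosen after their values were seen, separated DN from the GINIP+ subsets for some pairs and not for others. The level of Atf3 relative to Gadd45a was 2.25 and 2.20 in DP, 2.03 and 2.64 in C-LTMR, and 10.7 and 10.95 in DN. The level of Gadd45a relative to Sox11 was 9.34 and 9.70 in DP, 9.70 and 10.7 in C-LTMR, and 6.85 and 9.45 in DN, so these genes differed between DP and C-LTMR by similar factors. The level of Csf1 relative to Atf3 was 0.0128 and 0.0106 in DP, 0.0146 and 0.0121 in C-LTMR, and 0.0182 and 0.0128 in DN, and the groups overlapped.

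Npy, a neuropeptide gene known for its induction by axotomy in large sensory neurons, was at 0.740 and 0.239 RPKM in DP, 0.590 RPKM and listed at 0 in C-LTMR, and 0.141 and 0.447 RPKM in DN, below the low-value filter. Reg3b, another gene known from injured neurons, was at 0.157 and 0.103 RPKM in DP and 0.413 and 0.571 RPKM in C-LTMR, and was listed at 0 in both DN libraries. Both were named after their values were seen.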
